A study of Danio rerio with 20 samples.

Results

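The liver response to swimming that 1-year and 3-year zebrafish had in common was read from all 20 libraries of the series, 10 after swim-tunnel exercise and 10 at rest, in 1 model with exercise and age as additive terms. All fish were male Danio rerio of strain AB JxTu, with no transgene or mutant allele named in the labels. The 4 groups of 5 were exercised 1-year fish, resting 1-year fish, exercised 3-year fish and resting 3-year fish. A swim tunnel makes fish swim against flowing water; the sources used here do not state how long, how often or how fast they swam. Whether each library came from a separate fish is not stated, so p-values measure the spread between these libraries, which may be technical. Of 32105 genes counted, 18079 passed the filter on low counts and 222 were called, meaning a Benjamini-Hochberg adjusted p under 0.05 for the exercise term (edgeR quasi-likelihood test). The 222 genes are described here by what they did at each age.

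The liver supplies working muscle with glucose and lipid-derived fuel. When insulin is low, the transcription factor FOXO1 and the coactivator PPARGC1A (PGC-1alpha) are known to raise genes of glucose production and fuel oxidation. Liver cells also spend much of their energy on making ribosomes and on folding secreted proteins in the endoplasmic reticulum (ER), and both are known to be adjusted to nutrient supply in vertebrates.

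Total counts per library were between 33067760 and 49579666 in the exercised and between 33046127 and 47169864 in the resting libraries. Hepatocyte markers averaged 9.36 log2 CPM (CPM is a gene's share of its library's TMM-scaled counts) in exercised and 9.50 in resting libraries, with every library between 8.93 and 9.85. Reads of intestine, taken as more than 100 plain CPM of the enterocyte gene FABP2, were present in 5 exercised libraries (1-year replicates 3 and 4, 3-year replicates 1, 2 and 5) and in 2 resting libraries (1-year replicate 5, 3-year replicate 3). The summed level of the 34 intestine markers was between 1070 and 53200 CPM in exercised and between 1380 and 55100 CPM in resting libraries. Its mean log2 level was 3.03 in exercised and 1.34 in resting libraries, a difference of 1.70 (two-sided exact permutation test within age, p = 0.302, adjusted p over 2 lists 0.545). The exocrine pancreas list was at 6.12 in exercised and 7.04 in resting libraries (exact permutation p = 0.545), and its trypsinogen gene prss1 was between 1.78 and 12900 plain CPM in exercised and between 37.9 and 25400 in resting libraries. Results are therefore also given without the 7 libraries with intestinal reads and with the intestine level as a covariate.

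Exercised livers had more messenger RNA for 3 regulators of fasting metabolism, 10 genes of ribosome biogenesis and several genes of tRNA modification and processing. They had less for 5 ER chaperones and cofactors, 3 signal peptidase subunits, a clock repressor and the cytochrome P450 gene cyp2k31. Of the 18079 genes tested, 125 (0.691%) were higher and 97 (0.537%) lower in exercised livers, 1.23% in all. The smallest adjusted p was 0.00158. Fitted log2 fold changes were between 0.33 and 3.56 in the higher and between -3.59 and -0.29 in the lower genes. In bulk liver RNA, fewer or more cells of a type and less or more RNA per cell cannot be told apart.

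The sign at each age was taken from a model of 4 group means. All 222 called genes had the same sign in 1-year and in 3-year livers, which an additive call nearly fixes and which is therefore no sign of stability. At 1 year the difference was the larger one for 163 genes, and at 3 years for 59. The median log2 fold change of the higher genes was 0.85 at 1 year and 0.60 at 3 years, and that of the lower genes -0.81 and -0.68. In that model 515 genes (2.85%) were called at 1 year, 121 of them among the 222, and none at 3 years by edgeR. At 3 years 189 of the 222 had an unadjusted p under 0.05. In the separate 3-year fit 7.40% of all genes were higher and 8.24% lower at that threshold. The libraries of both ages chose the 222, so a large share with a small p at 3 years was largely fixed and is no separate support. Over all 18079 genes, 50.1% had the same sign at both ages. With all 20 libraries the fold changes at the 2 ages were uncorrelated (across genes, Pearson r = 0.01, Spearman rho = 0.01).

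**Figure D1:**
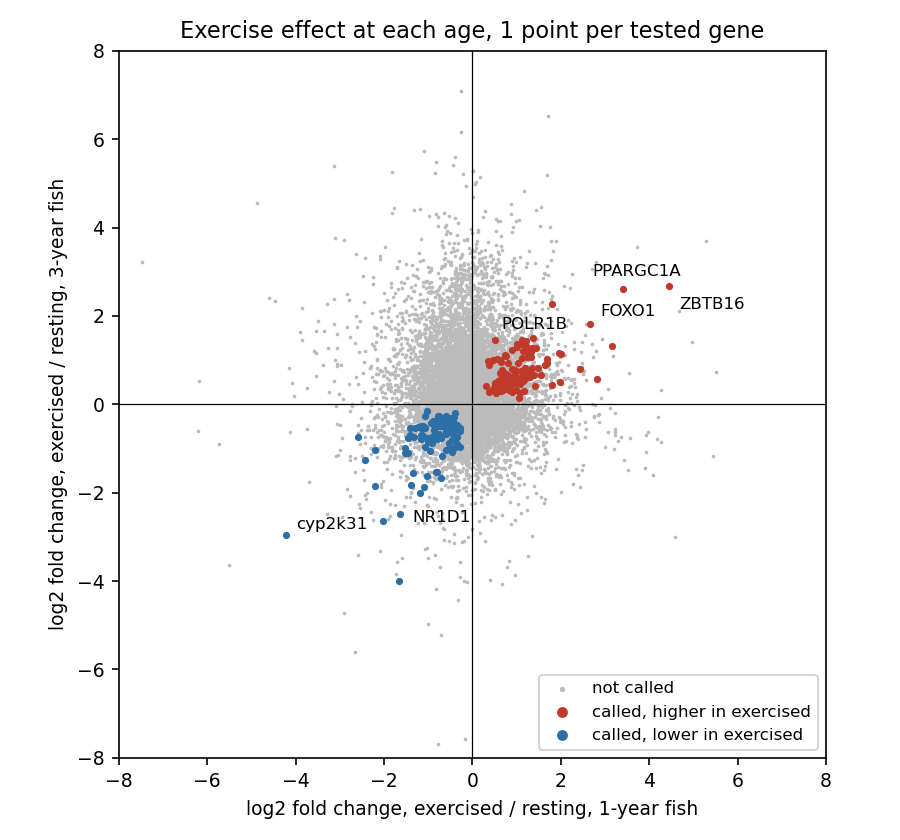
Log2 fold change of exercised over resting livers in 1-year fish (x axis) and 3-year fish (y axis), 1 point per tested gene, with called genes in red (125 higher) and blue (97 lower). The cloud of all genes is round, with 50.1% of signs alike, and the called genes lie at the upper right and lower left, ZBTB16, PPARGC1A and cyp2k31 farthest out among the labelled ones. 3 genes lie outside the axes, none of them called.

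Fits of the 10 libraries of each age alone, which share no library, scaling or dispersion, gave the same question another form. Genes with an unadjusted p under 0.05 at both ages and the same sign numbered 260, of which 106 (0.586% of genes tested) were higher and 154 (0.852%) lower in exercised livers. Against these, 157 genes (0.868%) passed at both ages with opposite signs. The additive model called 151 of the 260. At 1 year alone 223 genes (1.23%) were called, and 114 of these (51.1%) had the same sign at 3 years, close to the 50.2% over all genes. At 3 years alone no gene was called by edgeR, with 2828 at an unadjusted p under 0.05.

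The number of called genes rested on many single libraries. Without any 1 of exercised 1-year replicates 1 to 4 it was 77, 65, 102 and 60, and without resting 1-year replicates 1 to 4 it was 95, 128, 84 and 48. Without exercised 3-year replicates 1, 2, 4 and 5 it was 132, 83, 132 and 58, and without resting 3-year replicates 1, 3 and 5 it was 122, 118 and 145. Without resting 1-year replicate 5 it was 388, and the share of all genes with the same sign at both ages was 61.2%. Without exercised 1-year replicate 4 that share was 42.4%, and both of these libraries held intestinal reads. The remaining 4 fits gave 171 to 258 called genes.

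**Figure D2:**
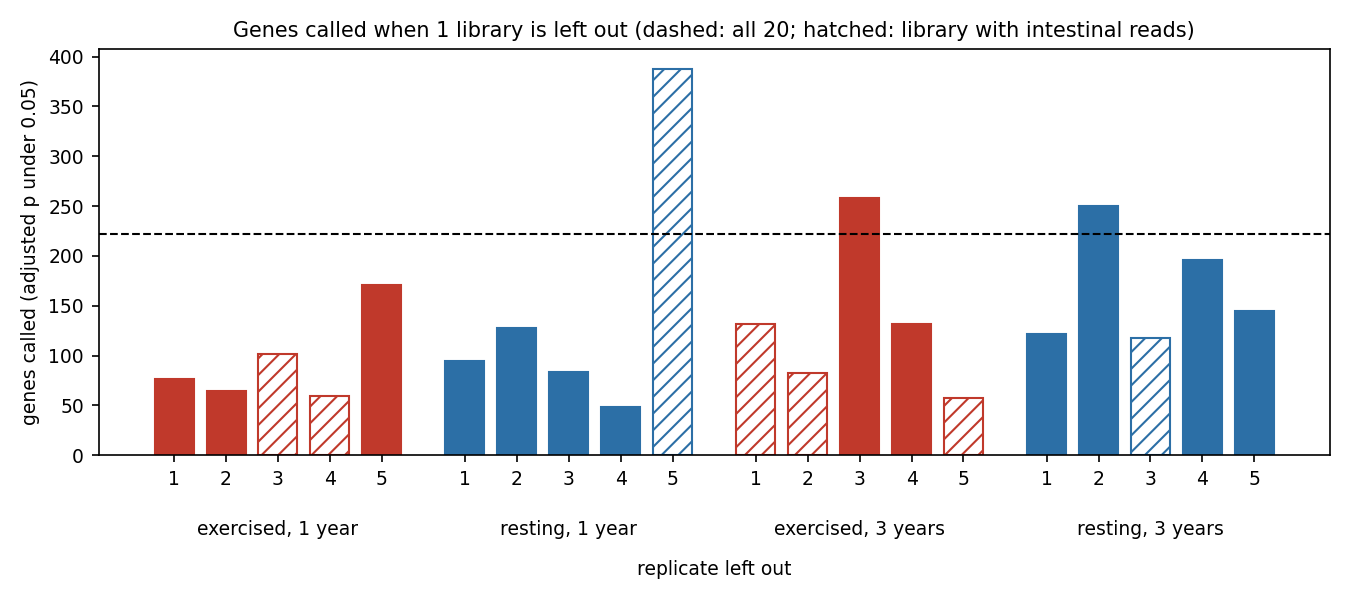
Number of genes called (y axis) when the library named on the x axis was left out, in red for exercised and blue for resting libraries, with hatching for the 7 libraries with intestinal reads and a dashed line at the 222 called with all 20. The count was lowest, 48, without resting 1-year replicate 4 and highest, 388, without resting 1-year replicate 5.

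Without the 7 libraries with intestinal reads, no gene passed the edgeR test over the remaining 13 (smallest adjusted p 0.0651, 2039 genes at an unadjusted p under 0.05). The exercised libraries left were 1-year replicates 1, 2 and 5 and only 3-year replicates 3 and 4, and each resting group lost 1 library. All 222 genes kept their direction in these 13 libraries and had an unadjusted p under 0.05. Of the 222, 220 had the same sign at both ages. These 13 libraries are part of the 20 that chose the genes, so this is a description. Over all genes, fits of each age alone on these 13 gave 90 genes with the same sign at an unadjusted p under 0.05 at both ages. Opposite signs were found for 111, whereas with all 20 libraries the counts were 260 and 157. With the intestine level as a covariate on all 20 libraries 177 genes were called, 103 (0.57%) higher and 74 (0.409%) lower, of which 154 were among the 222. With the intestine and pancreas levels as covariates 113 were called, 61 (0.337%) higher and 52 (0.288%) lower, 95 of them among the 222.

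**Figure D3:**
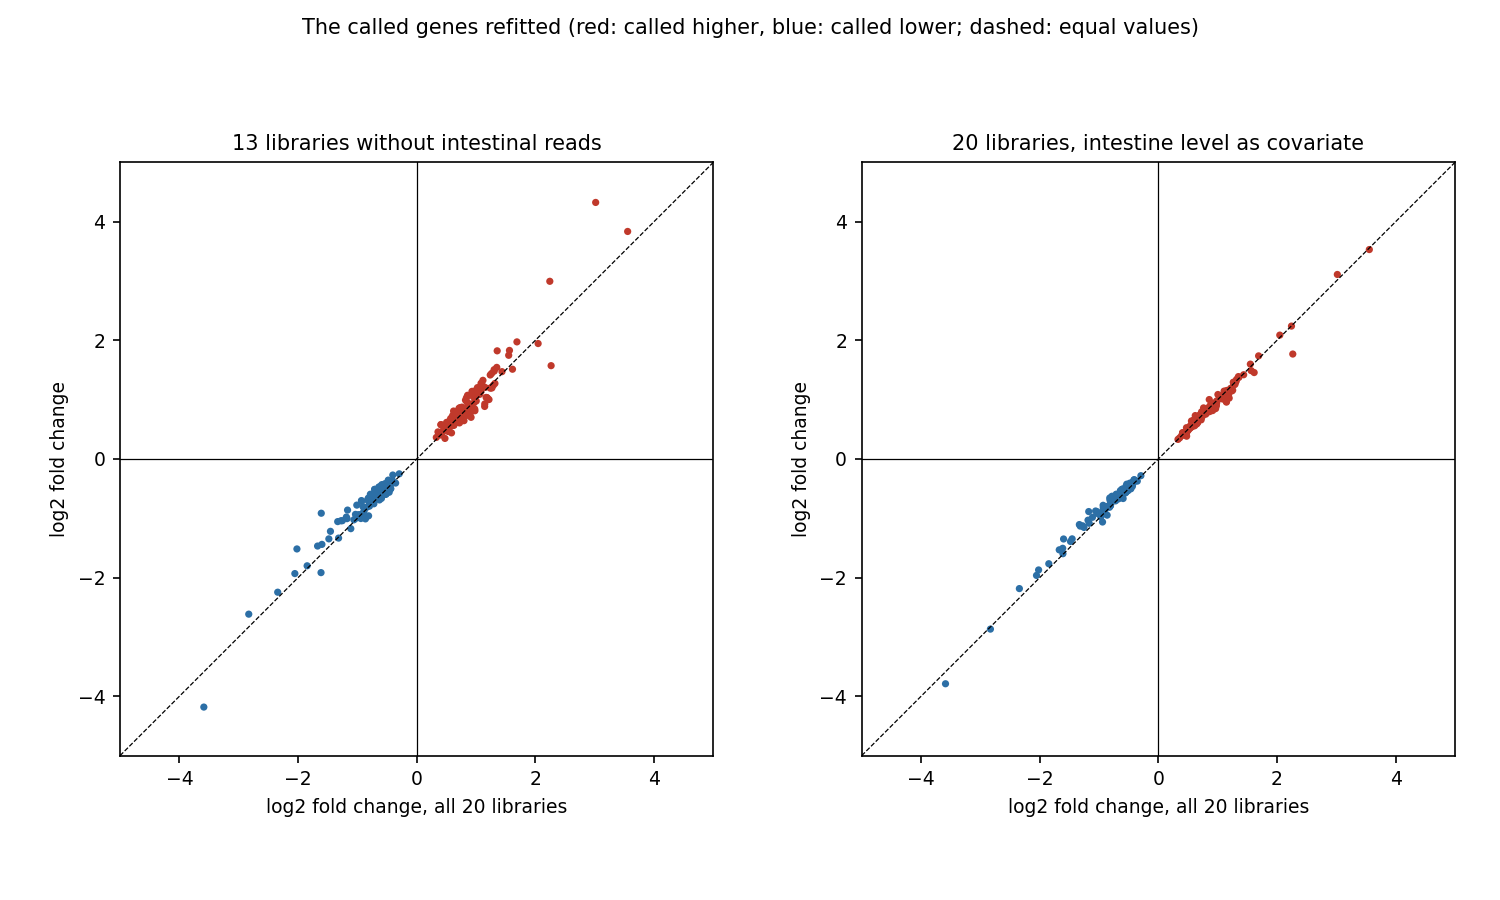
Log2 fold changes of the 222 called genes in all 20 libraries (x axes) against those in the 13 libraries without intestinal reads (left) and in all 20 with the intestine level as a covariate (right), red for genes called higher and blue for genes called lower. All points keep their side of 0, and PPARGC1A, FOXO1 and cyp2k31 lie farther from 0 in the 13 libraries.

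Among regulators of fasting and insulin-sensitive metabolism, ZBTB16, PPARGC1A and FOXO1 rose. ZBTB16 (PLZF, a transcription factor induced by glucocorticoids in mammals) had 85.8, 188, 181, 185 and 159 CPM in exercised 1-year livers, against 4.77, 12.2, 3.24, 2.22 and 14.3 CPM in resting 1-year livers. At 3 years it had 14.2, 5.98, 23.0, 41.4 and 89.7 CPM in exercised livers, against 9.21, 9.50, 3.95, 1.51 and 3.24 CPM in resting livers. Every exercised 1-year library was above every resting one, whereas at 3 years exercised replicate 2 lay within the resting range. The fitted log2 fold change was 3.56 ± 0.55 (SE, adjusted p = 0.00774), with 4.44 at 1 year and 2.67 at 3 years.

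FOXO1 (ENSDARG00000099555), the insulin-inhibited activator of gluconeogenic genes, had 160, 227, 165, 157 and 78.8 CPM in exercised 1-year livers, against 8.85, 9.39, 13, 16.6 and 76.1 CPM in resting 1-year livers. In exercised 3-year livers it had 114, 139, 69.2, 146 and 41.7 CPM, against 23.8, 22.4, 26.6, 41.3 and 30.1 CPM in resting 3-year livers. The groups did not overlap within either age, but resting 1-year replicate 5, one of the libraries with intestinal reads, was close to the lowest exercised library. At 3 years exercised replicate 5 (41.7 CPM) and resting replicate 4 (41.3 CPM) were nearly level. The log2 fold change of FOXO1 was 2.24 ± 0.39 (SE, adjusted p = 0.0117), and 2.67 without resting 1-year replicate 5.

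PPARGC1A, the coactivator of mitochondrial and gluconeogenic genes, had 52.4, 36.5, 23.3, 24.7 and 8.04 CPM in exercised 1-year livers, against 0.681, 0.916, 0.832, 0.788 and 10.2 CPM in resting 1-year livers. At 3 years it had 9.58, 18.1, 7.71, 20.1 and 10.1 CPM in exercised livers, against 1.25, 3.51, 2.50, 0.386 and 3.04 CPM in resting livers. The 3-year groups did not overlap. At 1 year the only overlap was between resting replicate 5 (10.2 CPM) and exercised replicate 5 (8.04 CPM). Resting replicate 5 was again the resting library nearest the exercised ones. The log2 fold change was 3.02 ± 0.55 (SE, adjusted p = 0.0152), 3.73 without resting 1-year replicate 5 and 4.32 without all 7 libraries with intestinal reads.

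These 3 genes were the called members of 37 tested in the list of insulin and fasting regulators, beside a background of 0.691% higher and 0.537% lower. The list as a whole had a median log2 fold change of 0.07, against 0.01 over all genes, with 0.12 at 1 year and 0.06 at 3 years. Its members went both ways, 21 of the 37 having a positive value. At both ages 14 were higher (37.8%) and 9 lower (24.3%), against 24.5% and 25.6% of all genes. At an unadjusted p under 0.05 for the additive term 7 were higher (18.9%) and 3 lower (8.11%), against 6.57% and 8.35%. Short of a call, the paralog zbtb16b averaged 108 CPM in exercised and 32.4 CPM in resting livers (log2 fold change of 1.71, adjusted p = 0.0514), and PPARA, the lipid-sensing nuclear receptor, 10.3 and 3.19 CPM (1.65, adjusted p = 0.0789). ZBTB16, FOXO1 and PPARGC1A were called in all 20 fits that left out 1 library and in 29 of the 30 alternatives, the exception being the fit without the 7 libraries. The lists of glucose and fat metabolism did not rise with them. Gluconeogenesis and glycolysis had none of 50 tested members called, 25 positive values and a median of -0.00. Fatty acid oxidation had 1 of 42 called, which was lower, and a median of -0.26, with 0.04 at 1 year and -0.51 at 3 years. In the separate 3-year fit 22 of its members were lower at an unadjusted p under 0.05 (52.4%, against 8.24% of all genes).

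**Figure D4:**
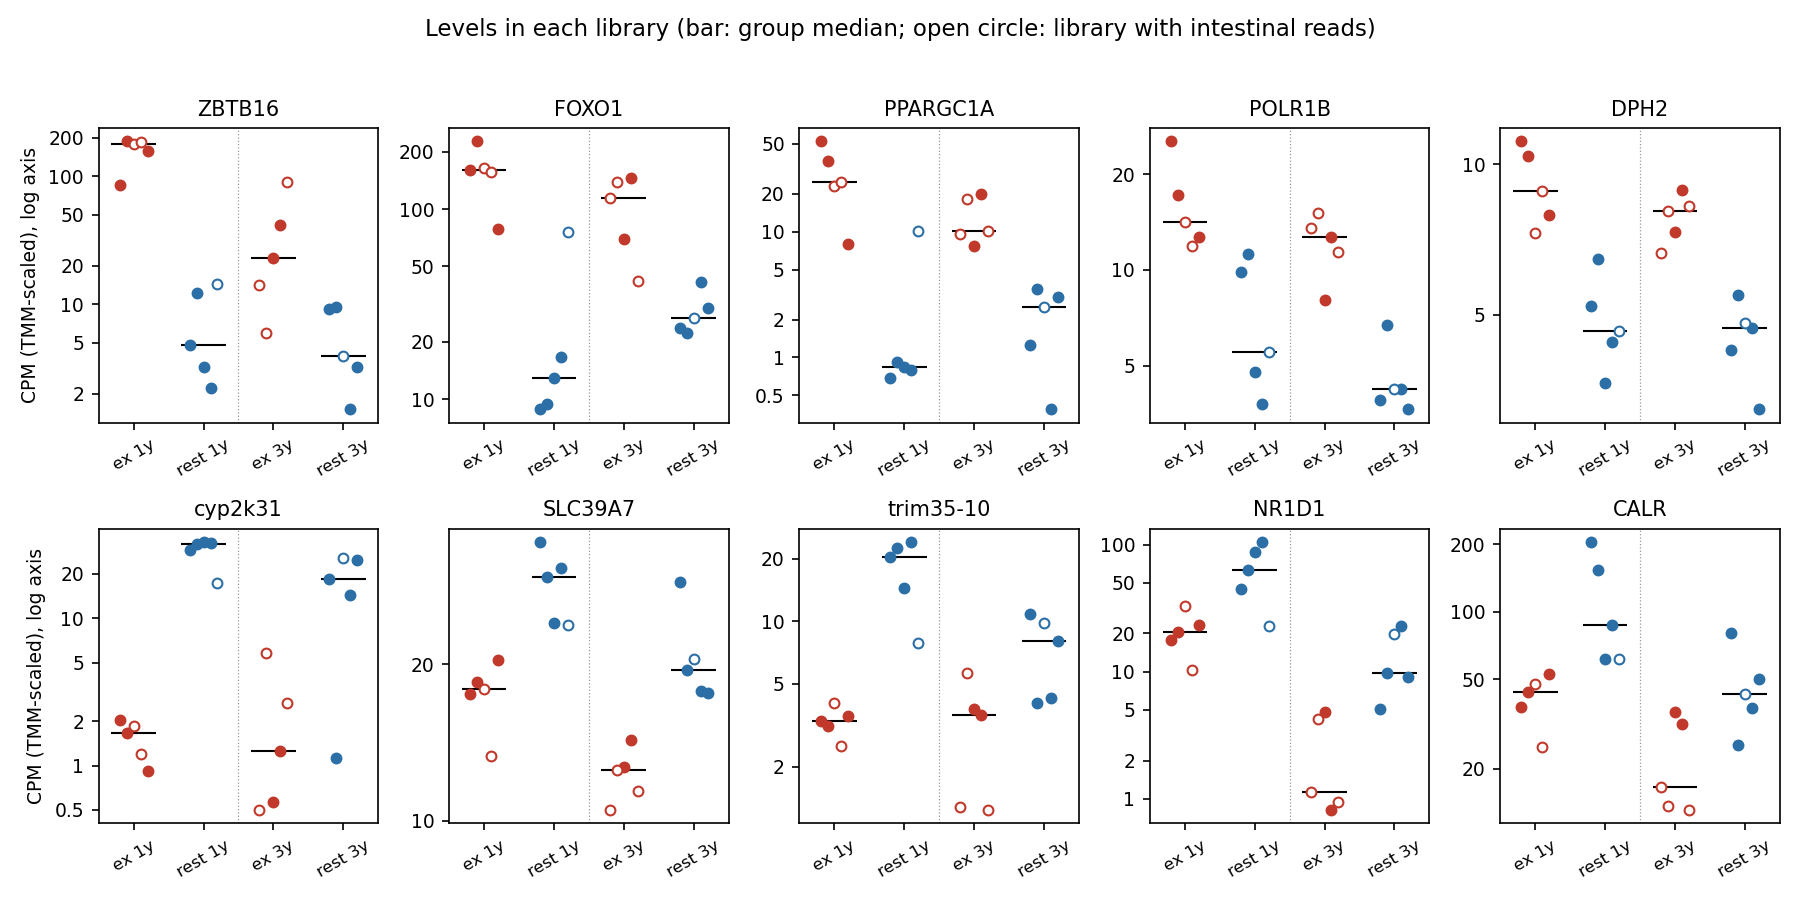
TMM-scaled CPM in every library (log y axes) of 10 genes, with exercised (red) and resting (blue) groups side by side at 1 year (left of each dotted line) and at 3 years (right), black bars at group medians and open circles for the libraries with intestinal reads. ZBTB16, FOXO1, PPARGC1A, POLR1B and DPH2 have higher and cyp2k31, SLC39A7, trim35-10, NR1D1 and CALR lower medians in exercised livers at both ages. Among resting 1-year libraries the open blue circle lies nearest the exercised values for ZBTB16, FOXO1, PPARGC1A, cyp2k31, SLC39A7, trim35-10 and NR1D1. For CALR it is level with another resting 1-year library.

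Among the lists, all chosen with earlier results of these data known, ribosome biogenesis had the most called members. Ribosomal RNA is transcribed by RNA polymerase I, and 5S ribosomal RNA and tRNA by RNA polymerase III. POLR1B, the second-largest polymerase I subunit, had 25.4, 17.2, 14.2, 11.9 and 12.7 CPM in exercised 1-year livers, against 9.82, 11.2, 4.77, 3.77 and 5.52 CPM in resting 1-year livers. In 3-year livers it had 13.6, 15.1, 8.06, 12.7 and 11.4 CPM after exercise, against 3.90, 6.73, 4.22, 4.21 and 3.64 CPM at rest. The groups did not overlap at either age, and the log2 fold change was 1.32 ± 0.21 (SE, adjusted p = 0.00774), with 1.22 at 1 year and 1.42 at 3 years.

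GTF3A (ENSDARG00000030267), or TFIIIA, the factor that recruits polymerase III to the 5S ribosomal RNA genes, had the smallest p of all genes at a low level. It had 6.60, 6.04, 3.43, 4.86 and 3.32 CPM in exercised 1-year livers, against 2.24, 2.09, 1.22, 1.52 and 2.29 CPM in resting 1-year livers. It had 5.11, 4.57, 3.57, 5.22 and 6.39 CPM in exercised 3-year livers, against 2.41, 2.06, 1.52, 1.30 and 1.46 CPM in resting 3-year livers. The lowest exercised value lay above the highest resting one, and the log2 fold change was 1.44 ± 0.17 (SE, adjusted p = 0.00158). Only 10 of the 18079 genes (0.0553%) separated all 10 exercised from all 10 resting libraries, and 9 of them were called, GTF3A, DPH2, pho, RPP30 and ALKBH8 among them.

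RRN3, which brings polymerase I to its promoter, averaged 14.8 ± 2.56 CPM in exercised and 8.85 ± 1.56 CPM in resting livers, where ± after a mean is the SD over both ages here and below (n = 10 each). Such an SD also holds the difference between the ages. Of the 222 genes, 58 were called for age too in the additive model, against 1811 of the 18079 tested. The log2 fold change of RRN3 was 0.74 ± 0.12 (SE, adjusted p = 0.00774). TAF1B, a subunit of the promoter-binding SL1 factor, averaged 4.35 ± 0.80 and 2.94 ± 0.41 CPM (0.57 ± 0.12, adjusted p = 0.0258), and POLR1F, another polymerase I subunit, 8.75 and 4.75 CPM (0.90 ± 0.19, adjusted p = 0.0352, called in 11 of the 20 fits that left out 1 library). TAF1B lost its call without exercised 1-year replicate 2, exercised 3-year replicate 5 or resting 1-year replicate 4, with adjusted p-values of 0.0644, 0.0548 and 0.0545. In the list of polymerase I and III subunits and factors, assembled after the values had been seen, 5 of 40 members rose, against 0.691% of all genes, and none fell. Its median log2 fold change was 0.15, with 0.29 at 1 year and 0.16 at 3 years.

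Downstream of transcription, WDR75, a component of the small-subunit processome that cleaves the pre-ribosomal RNA, averaged 14.9 ± 4.15 CPM in exercised and 6.21 ± 2.51 CPM in resting livers (log2 fold change of 1.27 ± 0.22 SE, adjusted p = 0.0107). The kinase RIOK2, which acts in the last steps of small-subunit maturation, averaged 13.7 ± 2.16 and 8.85 ± 1.32 CPM (0.63 ± 0.11, adjusted p = 0.0123). The nucleolar protein gene dnttip2, called too but on no list, averaged 26.9 ± 7.98 and 13.4 ± 2.75 CPM (0.98 ± 0.16, adjusted p = 0.00847). Its log2 fold change was 1.22 at 1 year and 0.74 at 3 years. Without the 7 libraries with intestinal reads these values were 1.29 and 0.14. The other called members, with log2 fold changes of 0.62 to 1.30, were the export factor RRP12, the processome proteins WDR43 and NOL6, the helicase DDX18, the GTPase GNL2 and the large-subunit factor PPAN. RRP12 was called in all 20 fits that left out 1 library, and the other 5 in 5 to 10 of them.

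In the ribosome biogenesis list of 54 tested genes, 10 rose and none fell, against 0.691% and 0.537% of all genes. Of the 54, 49 had a positive log2 fold change, 40 were higher at both ages (74.1%, against 24.5% of all genes) and 34 had an unadjusted p under 0.05 in the higher direction (63.0%, against 6.57% of all genes). The median was 0.43 over both ages, 0.38 at 1 year and 0.44 at 3 years. In the separate fits 18 members were higher at an unadjusted p under 0.05 at 1 year, against 7.37% of all genes. At 3 years 22 were, against 7.40%, and 8 were at both ages, against 0.586%. The mean level of the list was 4.09 ± 0.23 log2 CPM in exercised and 3.68 ± 0.37 in resting 1-year livers, and 3.90 ± 0.15 and 3.39 ± 0.34 in 3-year livers (SD, n = 5 each). Without the 7 libraries with intestinal reads the median was 0.35, with 0.44 at 1 year and 0.22 at 3 years. In that fit 15 members had an unadjusted p under 0.05, all higher (background 5.77%). With the intestine level as a covariate 9 members were called, all higher (background 0.57%). The cell cycle list had no called member and a median of 0.48, with a mean level of -0.01 log2 CPM in exercised and 0.01 in resting 1-year livers, and 0.58 and -0.03 in 3-year livers. Whether dividing cells take part in the ribosome result was not tested.

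The structural proteins of the cytosolic ribosome did not share this direction. None of 74 tested members was called, none had a positive log2 fold change, and 57 (77%) were lower at both ages, against 25.6% of all genes. Their median was -0.02 at 1 year and -0.50 at 3 years. For the additive term 7 of them had an unadjusted p under 0.05, beside a background of 8.35% lower. In the separate fits no member was lower at an unadjusted p under 0.05 at 1 year. At 3 years 43 were (58.1%, against 8.24% of all genes).

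Several genes of tRNA modification and processing rose too. RPP30, a protein subunit of the RNase P that trims tRNA precursors, averaged 4.29 ± 1.11 CPM in exercised and 1.91 ± 0.49 CPM in resting livers (log2 fold change of 1.15 ± 0.18 SE, adjusted p = 0.00774). ALKBH8, which modifies the wobble uridine, averaged 4.72 ± 1.73 and 1.98 ± 0.52 CPM (1.26 ± 0.21, adjusted p = 0.0092). TRMT61A, the catalytic subunit of a tRNA adenosine methyltransferase, averaged 5.33 ± 2.43 and 2.27 ± 1.17 CPM (1.22 ± 0.22, adjusted p = 0.0152), and the methyltransferase gene trmo 2.14 ± 0.39 and 1.23 ± 0.24 CPM (0.80 ± 0.15, adjusted p = 0.0152). All 4 had a mean under 5 CPM over the 20 libraries, and all were called in every fit that left out 1 library.

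The list of 72 tRNA modification and processing genes, also put together after the values had been seen, had 7 members called higher, against 0.691% of all genes, and none lower, the other 3 being TRMT1, RPP25L and CTU1. Its median log2 fold change was 0.16, with 0.36 at 1 year and 0.08 at 3 years, and 38 members (52.8%, against 24.5% of all genes) were higher at both ages. At 1 year alone 30 members had an unadjusted p under 0.05 in the higher direction, and at 3 years alone 10, against 7.37% and 7.40% of all genes. Without the 7 libraries with intestinal reads the median was 0.24, with 0.44 at 1 year and 0.07 at 3 years.

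DPH2, which makes the diphthamide residue of elongation factor 2, had the smallest p of the rises with at least 5 CPM. It had 11.1, 10.4, 7.29, 8.83 and 7.93 CPM in exercised 1-year livers, against 5.22, 6.46, 3.66, 4.42 and 4.65 CPM in resting 1-year livers. It had 6.64, 8.05, 7.33, 8.88 and 8.25 CPM in exercised 3-year livers, against 4.26, 5.49, 4.81, 4.70 and 3.24 CPM in resting 3-year livers. All exercised libraries were above all resting ones, by a log2 fold change of 0.85 ± 0.12 (SE, adjusted p = 0.00681) that was 0.90 at 1 year and 0.80 at 3 years.

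Among 57 genes of mitochondrial translation 4 rose, against 0.691% of all genes, and none fell, while the list had a median of -0.03. At 3 years alone 1 member was higher and 10 (17.5%) were lower at an unadjusted p under 0.05, against 7.40% and 8.24% of all genes. The GTPase GTPBP10, which acts in assembly of the large mitochondrial ribosome subunit, averaged 14.5 ± 4.27 CPM in exercised and 9.32 ± 1.23 CPM in resting livers (log2 fold change of 0.59 ± 0.11 SE, adjusted p = 0.0152). Its log2 fold change was 0.85 at 1 year and 0.33 at 3 years. GFM2, which recycles mitochondrial ribosomes, averaged 9.82 ± 3.38 and 6.02 ± 0.80 CPM (0.67 ± 0.15, adjusted p = 0.0391), with 0.35 at 1 year and 0.98 at 3 years. The release factor gene mtrf1 averaged 4.58 ± 0.97 and 2.69 ± 0.90 CPM (0.76 ± 0.18, adjusted p = 0.0429), with 1.07 at 1 year and 0.45 at 3 years. In the separate 3-year fit the unadjusted edgeR p was 0.107 for GTPBP10 and 0.176 for mtrf1. CLPX (ENSDARG00000029063), the unfoldase of the matrix protease, averaged 76.3 ± 26.1 and 48.1 ± 5.81 CPM (0.60 ± 0.14, adjusted p = 0.0466), with 1.06 at 1 year and 0.14 at 3 years, and the difference between the ages itself was called. GTPBP10 was called in all 20 fits that left out 1 library, GFM2, mtrf1 and CLPX in 6, 2 and 5 of them.

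Of the ER chaperones and their cofactors 5 fell. CALR, the calcium-binding lectin chaperone calreticulin, had 37.8, 44.1, 47.9, 25 and 52.6 CPM in exercised 1-year livers, against 205, 154, 61.8, 86.9 and 61.8 CPM in resting 1-year livers. It had 16.6, 13.6, 35.9, 31.6 and 13.1 CPM in exercised 3-year livers, against 80.4, 25.6, 43.1, 37.3 and 50.2 CPM in resting 3-year livers. The 1-year groups did not overlap, and at 3 years resting replicate 2 lay within the exercised range. The log2 fold change was -1.28 ± 0.28 (SE, adjusted p = 0.0353), with -1.46 at 1 year and -1.09 at 3 years.

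CANX, the membrane-bound partner calnexin, averaged 99.0 ± 27.8 CPM in exercised and 194 ± 99.8 CPM in resting livers (log2 fold change of -0.91 ± 0.18 SE, adjusted p = 0.0232, and 0.0513 without exercised 1-year replicate 4). The secreted ER protein MANF averaged 8.33 ± 3.07 and 32.3 ± 31.3 CPM (-1.67 ± 0.37, adjusted p = 0.0386), with -2.59 at 1 year and -0.75 at 3 years. DNAJB11, a co-chaperone of BiP, averaged 23.8 ± 10.8 and 47.4 ± 25.3 CPM (-1.01 ± 0.22, adjusted p = 0.0386), with -0.96 and -1.06. SDF2L1, another partner of BiP, was the other called member (-1.48 ± 0.33, adjusted p = 0.0389).

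Of 38 tested genes of ER chaperones and the unfolded protein response, 5 fell and none rose, against 0.537% and 0.691% of all genes. Earlier results of these data were known when this list was chosen. Of the 38, 34 had a log2 fold change below 0, 22 were lower at both ages (57.9%, against 25.6% of all genes), and 22 had an unadjusted p under 0.05 in the lower direction (57.9%, against 8.35%). In the separate fits 25 members were lower at an unadjusted p under 0.05 at 1 year and 12 at 3 years, against 7.71% and 8.24% of all genes. The median was -0.92 at 1 year and -0.18 at 3 years, and the mean level 4.30 ± 0.14 log2 CPM in exercised and 5.20 ± 0.47 in resting 1-year livers, and 4.07 ± 0.31 and 4.28 ± 0.35 in 3-year livers (SD, n = 5 each). HSPA5 (BiP), the main ER chaperone, had opposite signs at the 2 ages (-3.14 at 1 year and 0.52 at 3 years, adjusted p of the difference 0.0309) and was not called. CALR, MANF and DNAJB11 were each called in only 9, 9 and 8 of the 20 fits that left out 1 library, with adjusted p-values up to 0.0698, 0.0722 and 0.0719. CALR and MANF were lost in common without exercised 1-year replicates 1 to 4, exercised 3-year replicates 1, 2 and 5, resting 1-year replicates 2 and 4 or resting 3-year replicate 1, and DNAJB11 without these too. Each also lost its call elsewhere, CALR without resting 1-year replicate 1, MANF without exercised 1-year replicate 5, and DNAJB11 without resting 1-year replicate 1 or resting 3-year replicate 3. The exocrine pancreas list was at 6.96 log2 CPM in exercised and 6.83 in resting 1-year livers, and at 5.28 and 7.25 in 3-year livers. Its median fitted log2 fold change was -1.98 at 1 year and -0.69 at 3 years. Of its 25 tested members none was called, and 23 (92%) were lower at both ages, against 25.6% of all genes. Their summed level was between 218 and 165000 plain CPM in resting and between 1350 and 29600 in exercised 1-year libraries. At 3 years it was between 2080 and 136000 in resting and between 17.2 and 103000 in exercised libraries. The fitted value follows mean counts, where few pancreas-rich libraries weigh most, and the list level follows mean log2 values. So their signs can differ, as at 1 year, and the 23 members are not independent. The part of pancreas RNA in the ER chaperone result was not tested. Without the 7 libraries with intestinal reads the median of the ER chaperone list was -0.50, with -0.87 at 1 year and -0.11 at 3 years. In that fit 7 members had an unadjusted p under 0.05, all lower (background 5.52%). With the intestine level as a covariate 4 members were called, all lower (background 0.409%), and with both levels 6, all lower (background 0.288%).

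Several genes of the machinery that receives secretory proteins in the ER fell as well. SPCS1, SEC11A and SPCS3 belong to the signal peptidase complex and OSTC to the oligosaccharyltransferase (OST), which attaches N-glycans. SEC11A, the catalytic subunit, averaged 21.9 ± 7.10 CPM in exercised and 34.9 ± 6.04 CPM in resting livers (log2 fold change of -0.71 ± 0.15 SE, adjusted p = 0.0335). SPCS1 averaged 16.5 ± 1.56 and 22.5 ± 3.76 CPM (-0.45 ± 0.09, adjusted p = 0.0292), SPCS3 18.2 ± 3.18 and 26.2 ± 5.31 CPM (-0.55 ± 0.12, adjusted p = 0.0371), and OSTC 28.7 ± 8.59 and 43.0 ± 8.51 CPM (-0.63 ± 0.15, adjusted p = 0.0407). They were called in 11, 14, 10 and 4 of the 20 fits that left out 1 library, in the order SEC11A, SPCS1, SPCS3 and OSTC. In that order log2 fold changes were -0.43, -0.40, -0.36 and -0.29 at 1 year, and -0.99, -0.51, -0.74 and -0.97 at 3 years. In their list of 16 genes 4 fell, against 0.537% of all genes, and none rose, 13 were lower at both ages (81.2%, against 25.6%), and the median was -0.16 at 1 year and -0.63 at 3 years. In the separate fits 1 member was lower at an unadjusted p under 0.05 at 1 year and 13 at 3 years. Over all genes the shares lower were 7.71% and 8.24%. Without the 7 libraries with intestinal reads 5 members were lower and 1 higher at an unadjusted p under 0.05 (background 5.52% and 5.77%). In that fit 3 of the 16 had a positive log2 fold change. With all 20 libraries 13 were lower at that threshold (background 8.35%) and none higher. With the intestine and pancreas levels as covariates 1 was called, and it was lower (background 0.288%). In the list of 28 N-glycan assembly genes 2 fell, against 0.537% of all genes. They were the glucosyltransferase ALG5 (-0.64 ± 0.13, adjusted p = 0.0287) and the mannosyltransferase ALG12 (-1.06 ± 0.25, adjusted p = 0.0455). At both ages 21 members of that list were lower (75%, against 25.6% of all genes). Both lists were assembled after the values had been seen, as was that of zinc transporters.

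SLC39A7 (ZIP7), which moves zinc out of the ER and Golgi, had 17.5, 18.5, 17.9, 13.3 and 20.4 CPM in exercised 1-year livers, against 34.4, 29.4, 24.0, 30.6 and 23.8 CPM in resting 1-year livers. It had 10.5, 12.5, 12.7, 14.3 and 11.4 CPM in exercised 3-year livers, against 28.8, 19.5, 20.5, 17.8 and 17.6 CPM in resting 3-year livers. The groups did not overlap at either age, and the log2 fold change of -0.73 ± 0.11 (SE, adjusted p = 0.00769) was -0.70 at 1 year and -0.77 at 3 years. Of 19 zinc transporters, slc39a6 was the only other one called (-0.67 ± 0.13, adjusted p = 0.0179), beside a background of 0.537% lower. The median of the list was -0.09.

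**Figure D5:**
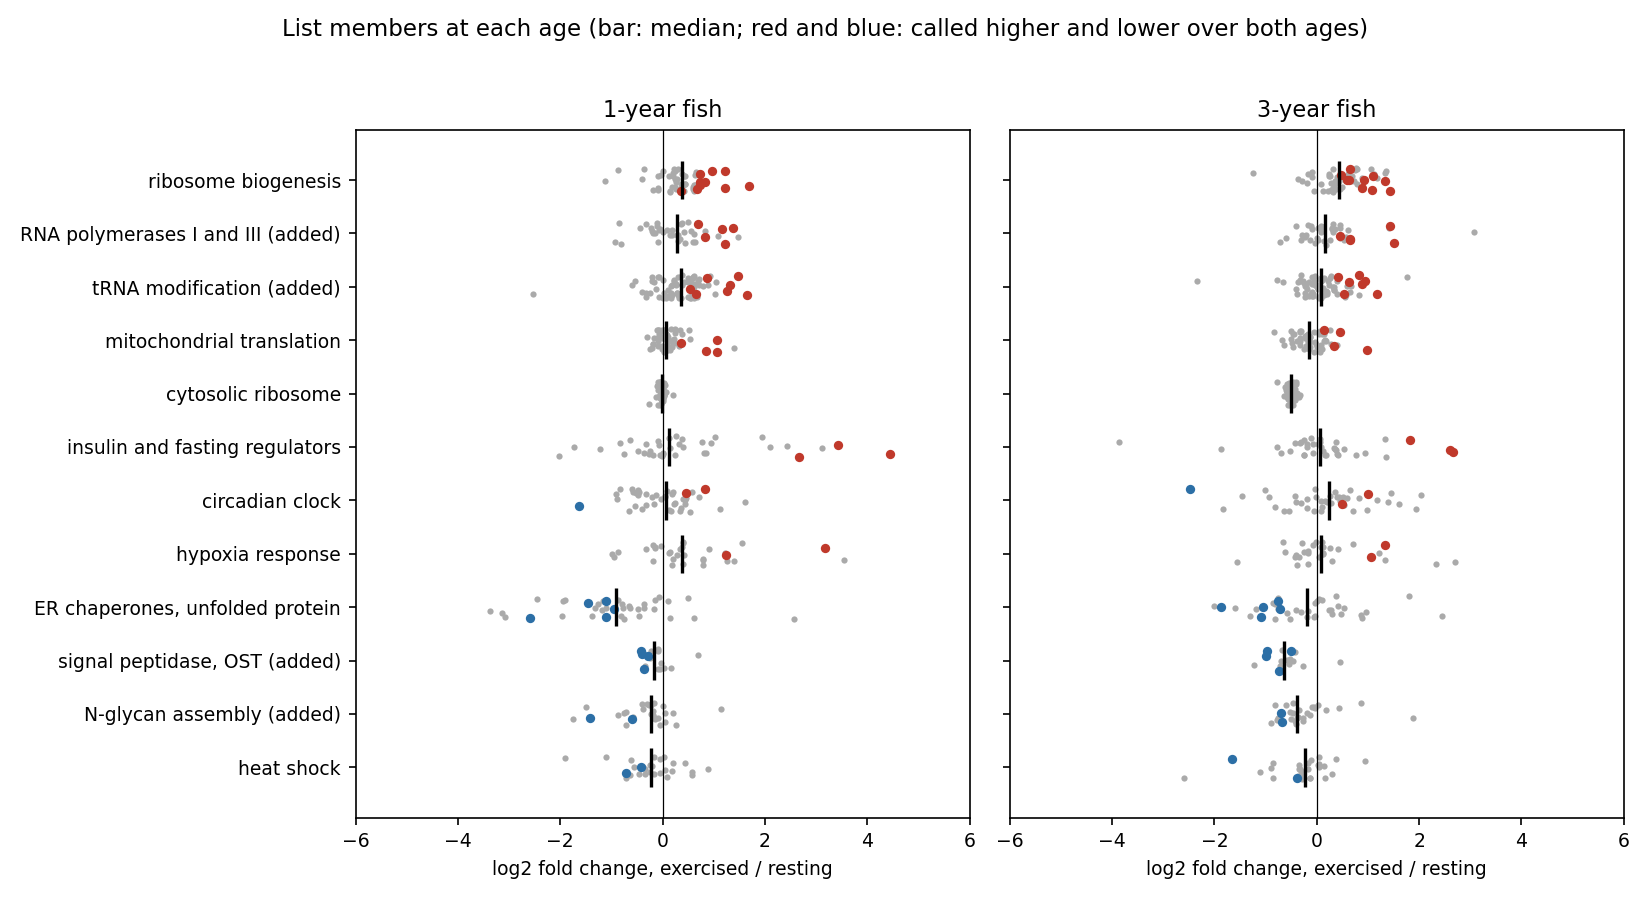
Log2 fold change of exercised over resting livers for the tested members of 12 gene lists (1 row each) in 1-year fish (left) and 3-year fish (right), with black bars at the medians, red and blue points for members called higher and lower over both ages, grey points for the others, and "added" for lists assembled after the values had been seen. Ribosome biogenesis lies above 0 at both ages (medians 0.38 and 0.44), and ER chaperones lie lower at 1 year (-0.92) than at 3 years (-0.18).

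Clock genes moved in both directions. NR1D1 (Rev-erb alpha), the nuclear receptor that represses the clock activator BMAL1, had 17.7, 20.4, 32.7, 10.4 and 23.1 CPM in exercised 1-year livers, against 44.5, 63.1, 87.7, 105 and 23.0 CPM in resting 1-year livers. It had 1.14, 4.21, 4.83, 0.819 and 0.952 CPM in exercised 3-year livers, against 5.05, 9.71, 19.9, 22.9 and 9.15 CPM in resting 3-year livers. The 3-year groups did not overlap, and at 1 year the overlap came from resting replicate 5. The log2 fold change was -2.05 ± 0.40 (SE, adjusted p = 0.0224, and 0.0545 without resting 1-year replicate 4).

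The clock-output transcription factor hlfa averaged 44.0 ± 7.67 CPM in exercised and 27.8 ± 6.27 CPM in resting livers (log2 fold change of 0.66 ± 0.15 SE, adjusted p = 0.0386), and the cryptochrome cry3b 51.0 ± 35.6 and 27.6 ± 15.9 CPM (0.73 ± 0.16, adjusted p = 0.0386). By age, cry3b averaged 19.25 CPM in exercised and 14.04 CPM in resting 1-year livers, and 82.8 and 41.24 CPM in 3-year livers. The log2 fold change of hlfa was 0.83 at 1 year and 0.49 at 3 years, and that of cry3b 0.46 and 1.01. Neither passed an unadjusted p of 0.05 at both ages in the separate fits. The edgeR p was 0.0935 for hlfa at 3 years and 0.0619 for cry3b at 1 year. In the additive model hlfa and cry3b were called in 10 and 9 of the 20 fits that left out 1 library, with adjusted p-values up to 0.0769 and 0.0750. In the clock list of 42 tested genes 2 rose and 1 fell, against 0.691% and 0.537% of all genes, and the median was 0.21. At an unadjusted p under 0.05, 9 members (21.4%) were higher and another 9 (21.4%) lower, against 6.57% and 8.35% of all genes. NR1D2, the paralog of NR1D1, was at -0.59 (adjusted p = 0.0528). The sources used here do not state the time of day at which livers were taken, and its part in these values was not tested.

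The list of xenobiotic metabolism had 1 of 25 tested members called, cyp2ad2, which was lower, beside a background of 0.537%. Its median was -0.29, with 15 members lower (60%) and 6 higher (24%) at both ages, against 25.6% and 24.5% of all genes. Outside that list cyp2k31, a cytochrome P450, had 2.04, 1.66, 1.86, 1.2 and 0.921 CPM in exercised 1-year livers, against 29.1, 32, 32.9, 32.1 and 17.3 CPM in resting 1-year livers. It had 0.501, 5.79, 0.569, 1.25 and 2.67 CPM in exercised 3-year livers, against 18.3, 1.13, 25.6, 14.3 and 24.8 CPM in resting 3-year livers. Apart from resting 3-year replicate 2, which was as low as the exercised libraries, the groups stood apart, and the log2 fold change was -3.59 ± 0.51 (SE, adjusted p = 0.00681), the largest fall among the called genes. Reads shared with other genes of the cyp2k family could affect its value, as the counting of such reads is not stated.

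The glucuronosyltransferase ugt5d1 averaged 11.9 ± 4.86 CPM in exercised and 28.7 ± 9.83 CPM in resting livers (log2 fold change of -1.25 ± 0.23 SE, adjusted p = 0.0152). cyp2ad6, another cytochrome P450, averaged 2.93 ± 1.85 and 8.0 ± 3.01 CPM (-1.45 ± 0.35, adjusted p = 0.0485), and was called in only 3 of the 20 fits that left out 1 library.

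trim35-10, one of a large fish family of TRIM proteins, had 3.30, 3.13, 4.05, 2.50 and 3.52 CPM in exercised 1-year livers, against 20.4, 22.5, 14.5, 24.1 and 7.86 CPM in resting 1-year livers. It had 1.28, 5.64, 3.79, 3.53 and 1.24 CPM in exercised 3-year livers, against 10.8, 4.04, 9.78, 4.28 and 8.04 CPM in resting 3-year livers. Exercised 3-year replicate 2 lay above resting replicates 2 and 4, the only overlap. The log2 fold change was -1.85 ± 0.32 (SE, adjusted p = 0.0123), with -2.44 at 1 year and -1.26 at 3 years.

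Further falls were smaller or less even. MAF (ENSDARG00000076520), a bZIP transcription factor, averaged 12.4 ± 8.89 CPM in exercised and 58.9 ± 40.9 CPM in resting livers (log2 fold change of -2.34 ± 0.54 SE, adjusted p = 0.0400), with overlap at both ages, and was called in 4 of the 20 fits that left out 1 library. The deubiquitinase MINDY1 averaged 7.51 ± 1.45 and 12.4 ± 3.27 CPM (-0.72 ± 0.14, adjusted p = 0.0185). The small membrane protein gene pdzk1ip1 averaged 5.05 ± 0.70 and 7.38 ± 1.13 CPM (-0.55 ± 0.10, adjusted p = 0.0154). The clathrin assembly protein PICALM (ENSDARG00000012866) averaged 58.0 ± 8.22 and 83.7 ± 12.4 CPM (-0.53 ± 0.11, adjusted p = 0.0273), and its adjusted p was 0.0532 to 0.0575 without exercised 1-year replicate 2 or 4, exercised 3-year replicate 5 or resting 1-year replicate 4.

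The remaining rises named by rank had no list. pho, known in zebrafish from hair cell regeneration, had 9.78, 7.48, 6.45, 6.50 and 5.05 CPM in exercised 1-year livers, against 2.50, 3.77, 4.21, 2.39 and 4.40 CPM in resting 1-year livers. It had 6.40, 7.28, 5.21, 8.62 and 6.06 CPM in exercised 3-year livers, against 3.83, 3.38, 3.38, 2.70 and 4.23 CPM in resting 3-year livers. All exercised libraries were above all resting ones (log2 fold change 0.98 ± 0.15 SE, adjusted p = 0.00769). phf20b, whose mammalian counterpart reads methylated histones, averaged 21.6 ± 4.40 and 13.7 ± 1.67 CPM (0.66 ± 0.11, adjusted p = 0.0107). phldb1b, encoding a membrane-binding protein, averaged 20.0 ± 10.1 and 7.85 ± 3.21 CPM (1.36 ± 0.31, adjusted p = 0.0400), and was called in 6 of the 20 fits that left out 1 library.

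Of the lists not yet described, none had more than 2 called members, beside a background of 0.691% higher and 0.537% lower. The hypoxia list had 2 of 31 higher, the hydroxylase JMJD6 (log2 fold change 1.15 ± 0.25 SE, adjusted p = 0.0386) and ANKRD37 (2.27 ± 0.55, adjusted p = 0.0487), with a median of 0.22. The heat shock list had 2 of 28 lower, the co-chaperones BAG3 (-1.19 ± 0.26, adjusted p = 0.0386) and CHORDC1 (ENSDARG00000017067; -0.41 ± 0.10, adjusted p = 0.0407). These 4 genes were called in 10 or fewer of the 20 fits that left out 1 library. Transport between ER and Golgi had 1 of 46 lower, the cargo receptor TMED2. At both ages 28 of its members were lower (60.9%, against 25.6% of all genes). Cholesterol synthesis had no called member and a median of -0.79, complement and coagulation none and -0.48, and oxidative phosphorylation none and -0.09. The intestine list had no called member and a median of 1.18, with -0.25 at 1 year and 2.57 at 3 years, and the pancreas list none and -1.34.

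A difference between the ages was called for 3 of the 222 genes in the 4-group model, against 177 (0.979%) of all genes. At an unadjusted p under 0.05 it was 24 of the 222 (10.8%) and 14.5% of all genes. An additive call favours genes with alike effects at both ages, so these shares are no sign of stability either. MAPK14 (ENSDARG00000000857), a p38 stress kinase, averaged 11.4 CPM in exercised and 17.0 CPM in resting livers, with a log2 fold change of -1.03 at 1 year and -0.16 at 3 years (adjusted p of the difference 0.0443). It was called in 5 of the 20 fits that left out 1 library. CLPX, described with mitochondrial translation, was another of the 3.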

How the data were processed

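Liver RNA of 20 samples was sequenced from libraries of a TruSeq RNA kit (version 2), per the labels' protocols. This kit does not mark strand, so reads of overlapping or antisense genes cannot be told apart. The deposited table holds raw whole-number counts of reads for each gene. Tools named in the submitters' processing notes are bcl2fastq 1.8.4, STAR 2.4.1d and featureCounts 1.4.6-p4, with genome build GRCz10. No genome of that build was used here, so no coordinates or sequences are given. The deposited RPKM were not used. Symbols came from a gene name table that matched 26269 of 32105 genes (81.82%). An identifier follows a symbol shared by several genes, whose values are uncertain where copies share reads.

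Counts were filtered with filterByExpr on the 4 groups, scaled by TMM and tested with edgeR 4.0.16 (R 4.3.3; glmQLFit and glmQLFTest) for exercise with age as covariate, with Benjamini-Hochberg adjustment over 18079 genes. Signs at each age and the difference between ages came from 4 group means, and each age was also fitted alone. SE values follow from the fold change and its test statistic. List levels are means of log2 CPM with a prior count of 2. Alternatives used DESeq2 1.42.0, limma 3.58.1 (voom), other scaling, filters, models and covariates, and leaving out libraries. The fit was tested on simulated data.

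Named genes were called, had a mean of at least 5 CPM and a symbol that is no placeholder: the 10 rises and 10 falls of smallest p, the 5 and 5 with the largest smaller one of both age effects, and up to 4 members of each list with at least 3 called members, for which the CPM minimum was not kept. Some genes that met this rule are not reported here. Other genes named were chosen after their values were seen. Members and lists (44, and 5 added after values were seen) were chosen with earlier results of these data known. Replicates were numbered in accession order. No column was left unmapped.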

Additional observations from a re-analysis of the deposited data

Results flagged for a closer look

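For 42 named genes the 4 groups of 5 libraries were checked for a single value whose gap to the nearest other exceeded 0.71 of the group's range, on the log2 scale with 0.1 CPM added. Chance flags about 1 in 20 groups, and 13 of 168 (7.74%) were marked here. The share of the range taken by the gap follows each gene.

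Resting 1-year replicate 5, a library with intestinal reads, stood apart toward the exercised values in 3 genes: PPARGC1A (0.898; 10.2 CPM, against 0.681 to 0.916 in the others), cyp2k31 (0.809; 17.3 against 29.1 to 32.9) and MAF (0.748; 5.53 against 56.1 to 122). Resting 3-year replicate 2 did so in 3 genes too: cyp2k31 (0.809; 1.13 CPM against 14.3 to 25.6), POLR1B (0.761; 6.73 against 3.64 to 4.22) and phf20b (0.887; 16.9 against 12.9 to 13.3). Resting 3-year replicate 4 was low in phldb1b (0.795; 3.97 CPM against 9.39 to 11.7) and hlfa (0.866; 14.5 against 31.1 to 35.0), and resting 3-year replicate 5 was high in cry3b (0.719; 58.7 against 34.3 to 39.9).

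Among exercised libraries, 1-year replicate 1 was low in ZBTB16 (0.786; 85.8 CPM against 159 to 188). At 3 years replicate 3 was high in MAF (0.748; 21.1 CPM against 2.81 to 4.70), replicate 2 low in GFM2 (0.873; 6.56 against 12.8 to 14.1) and replicate 5 low in SPCS1 (0.749; 13.1 against 15.5 to 16.4).

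The exercise effect differed between the ages, by the interaction term, in CLPX (ENSDARG00000029063; 3-year minus 1-year log2 fold change -0.92) and MAPK14 (ENSDARG00000000857; 0.87).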

How the results depend on the processing

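Of the 30 alternatives, none reversed a named gene. Counts are given as higher genes, lower genes and same-direction genes (same sign at both ages), beside 125, 97 and 222. They were 47, 29 and 76 with no filter, 200, 148 and 348 with a stricter one (1 CPM in 10 libraries), 44, 19 and 63 with no age term, 61, 52 and 113 with the intestine and pancreas covariates, 369, 404 and 768 with DESeq2, 396, 444 and 797 with limma-voom with quality weights, and 0, 0 and 0 without the 7 libraries with intestinal reads. The cause was not tested, except that the last fit has 13 libraries and the unfiltered one 26860 genes. The average of both age contrasts gave 172 lower and 335 same-direction genes. Leaving out 1 library gave 33 to 173 higher, 15 to 215 lower and 48 to 388 same-direction genes. Genes passing at each age alone with the same sign were 90 without the 7 libraries (111 opposite), and 51.5% of all genes then shared their sign. No paired analysis was possible because replicate numbers follow accession order and pair nothing. Genes under about 5 CPM rest on fewer reads and are less precise.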

Other observations

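Some called genes outside the ranking rule, picked here after their values were seen, concern nitrogen and energy handling. GLUL (ENSDARG00000100003), glutamine synthetase, averaged 110 CPM in exercised and 26.3 CPM in resting livers (log2 fold change 1.61 ± 0.34 SE, adjusted p = 0.0311), with 2.44 at 1 year and 0.79 at 3 years. Without the 7 libraries with intestinal reads the log2 fold change of GLUL was 2.43 at 1 year and 0.008 at 3 years. CA5B, a mitochondrial carbonic anhydrase, averaged 199 and 65.5 CPM (1.55 ± 0.29, adjusted p = 0.0152). GPCPD1, which breaks down glycerophosphocholine, averaged 88.2 and 39.3 CPM (1.24 ± 0.23, adjusted p = 0.0180). By age these means were 137 and 63.4 CPM at 1 year, and 39.4 and 15.3 CPM at 3 years. PHKA2, the liver phosphorylase kinase subunit, averaged 20.8 and 8.11 CPM (1.24 ± 0.29, adjusted p = 0.0400). CA5B and GPCPD1 were called in all 20 fits that left out 1 library, GLUL in 13 and PHKA2 in 7. In the fit without the 7 libraries with intestinal reads, CA5B was at 2.1 at 1 year and 1.2 at 3 years. In that order GPCPD1 was at 1.4 and 0.92, and PHKA2 at 2.2 and 0.27. The adjusted p-values are from the edgeR quasi-likelihood test over all genes.

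Inhibitors of translation, also picked after their values were seen, were among the called genes. EIF4EBP3, an inhibitor of cap-dependent initiation, averaged 134 CPM in exercised and 62.9 CPM in resting livers (1.15 ± 0.27, adjusted p = 0.0459), and EEF2K, the kinase that inhibits elongation factor 2, 88.3 and 55.3 CPM (0.59 ± 0.14, adjusted p = 0.0400). Beside cyp2ad6, its relatives cyp2ad2 (475 and 1015 CPM, -1.17 ± 0.27, adjusted p = 0.0400) and cyp2ad3 (68.9 and 118 CPM, -0.78 ± 0.18, adjusted p = 0.0391) fell. EIF4EBP3 was called in 2, EEF2K in 7, cyp2ad2 in 6 and cyp2ad3 in 7 of the 20 fits that left out 1 library. In the fit without the 7 libraries with intestinal reads, EEF2K was at 0.70 at 1 year and 0.08 at 3 years. EIF4EBP3 was then at 0.73 and 1.08. How reads shared among genes of this family were counted is not stated.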
